A study of Mus musculus with 33 samples.

Results

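Arginine sits at a branch point of nitrogen metabolism, and the 10 genes described here encode the enzymes and carriers that make it, bring it into the cell and use it. They are the urea cycle enzymes Cps1, Ass1 and Asl, the arginases Arg1 and Arg2, the inducible nitric oxide synthase Nos2, the cationic amino acid transporters Slc7a1 and Slc7a2, and Odc1 and Oat, which draw on ornithine. They were picked by symbol from a table of 48795 genes, with the difference between ESK981 and vehicle tumours already known for some of them, above all the higher Cps1 and the lower Nos2 and Arg1. That difference is therefore given below as a description and not as a test. All 10 passed the filter on low values that left 15846 genes tested.

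In the liver the urea cycle turns ammonia into urea. Cps1 makes carbamoyl phosphate from ammonia in the mitochondrion, Ass1 and Asl build arginine from citrulline and aspartate, and Arg1 splits arginine into urea and ornithine. In tumours the same substrate is contested by macrophages, in which Nos2 makes nitric oxide from arginine after interferon gamma and microbial or cytokine signals, and Arg1 breaks it down after interleukin 4 and related signals. Many tumour cells lower ASS1 and then depend on arginine from outside, while ornithine feeds polyamine synthesis through Odc1, a classical target of MYC.

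The tumours were grown from Myc-CaP, a prostate cancer line from a mouse carrying a prostate-directed MYC transgene, placed under the skin of both flanks of male FVB mice whose age the labels do not give. Treatment started at a tumour volume of 50 mm3 and lasted 3 weeks. The 4 groups of 5 mice were vehicle (10 tumours), the oral kinase inhibitor ESK981 at 15 mg/kg on 5 days a week (8 tumours), an antibody against PD-1 at 200 µg per mouse 3 times a week (7 tumours), and both agents together, called the combination (8 tumours). The protocol names an isotype control antibody as the counterpart of anti-PD-1, without saying which groups received it. RNA of whole tumours was sequenced after removal of ribosomal RNA, and levels are FPKM, fragment counts scaled to exon length and library depth, with group values as the mean ± SD over 5 mice. Tumours are named by group, a mouse number that means nothing across groups, and flank (L or R). The line is 1 line under the skin, and of the markers of prostate epithelium the tumours showed Foxa1, Krt8 and Hoxb13 throughout, while Epcam was listed at 0 in 17 of 33 tumours, and Krt18 and Cdh1 were low (medians of 0.12 and 0.24 FPKM).

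The libraries were not alike in depth or in sequencing run. They held from 9901152 fragments (vehicle 5R) to 32439036 fragments (ESK981 1R). The library names carry 1 of 2 codes of the kind given to flow cells: 9 of the 10 vehicle tumours have one code, and vehicle 5R and all 23 treated tumours have the other, so that for every comparison with vehicle the treatment and the flow cell cannot be told apart. Vehicle 5R also had the highest summed FPKM of the 13 mitochondrially encoded genes (90856), anti-PD-1 4R, with 11317285 fragments, followed at 52728, and combination 5R the highest level of ribosomal-RNA-like transcripts (500377 FPKM). These are called the 3 atypical libraries below. ESK981 1R and 2R had summed proliferation markers of 10.4 and 10.3 FPKM against medians of 61.1 to 90.1 in the groups. Results that rest on these 5 libraries are given with and without them.

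On the FPKM scale, which corrects for transcript length, Arg1 was the most abundant of the 10 transcripts, with a median of 94.3 FPKM over the 33 tumours. Odc1 (30.7) and Oat (19.5) followed, then Ass1 (9.86), Slc7a1 (8.05), Nos2 (6.85) and Slc7a2 (4.18). Asl (2.75), Cps1 (1.64) and Arg2 (1.002) were low. The genes differed far more in how much they varied: Oat, Asl and Slc7a1 spanned 3.11-fold, 3.29-fold and 3.36-fold from the lowest to the highest tumour, and Nos2 and Cps1 187-fold and 223-fold.

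**Figure D1:**
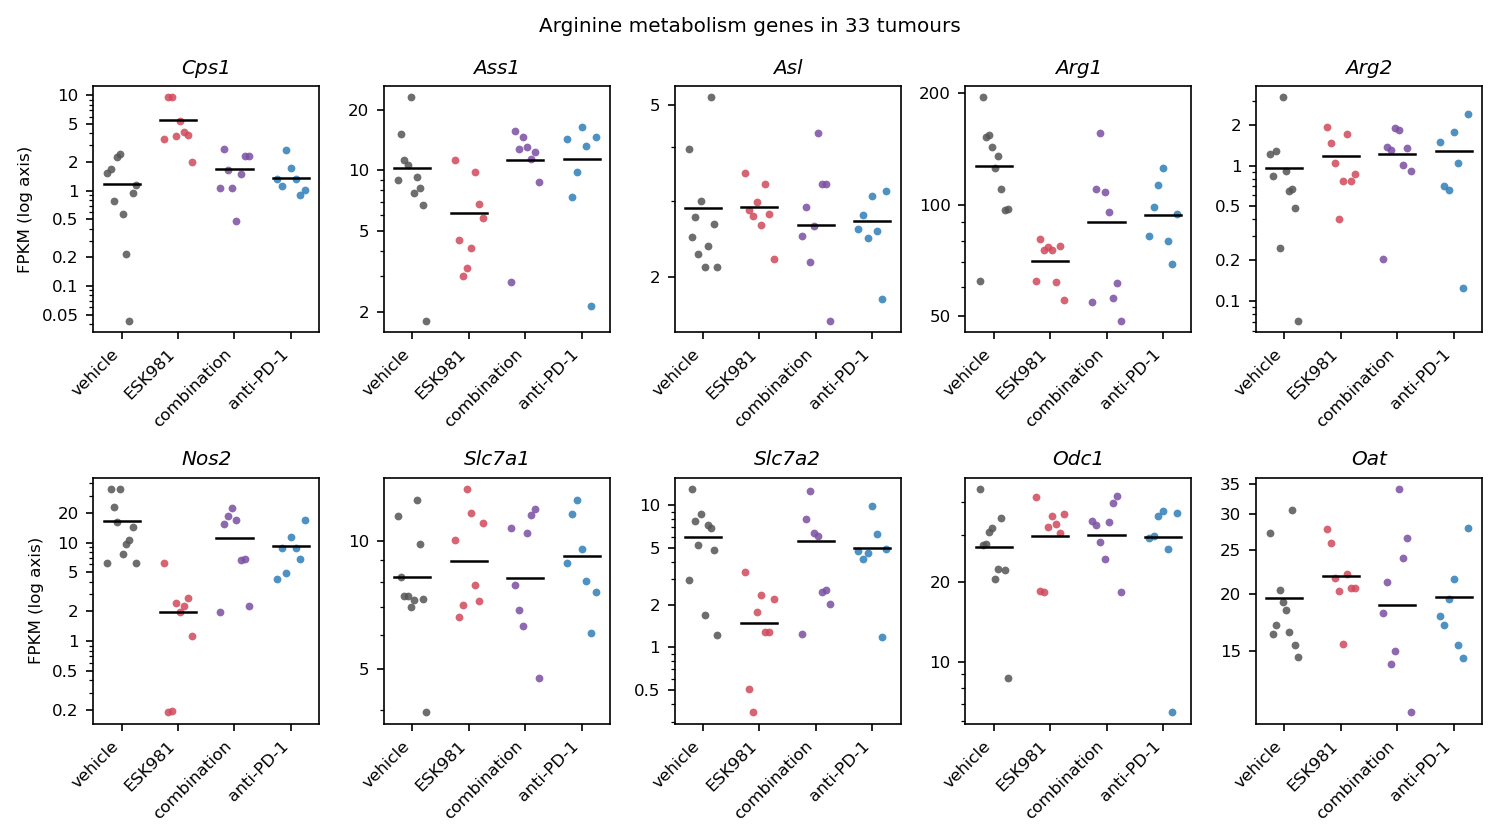
FPKM of the 10 genes in each tumour (points, log axis, 1 panel per gene) by treatment group, with black bars for the mean over 5 mice. Cps1 sits high and Nos2 and Slc7a2 sit low in the ESK981 panels, while Asl, Oat, Slc7a1 and Odc1 show no separation of the groups.

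Cps1 (chromosome 1, 67123026 to 67231259, plus strand, GRCm38) was the single urea cycle enzyme higher under ESK981. The 8 ESK981 tumours lay between 1.98 and 9.59 FPKM, with 9.59 in 1R, 9.56 in 2R, 5.41 in 3R, 4.09 in 4R, 3.82 in 5L, 3.80 in 3L, 3.50 in 1L and 1.98 in 5R. Vehicle tumours ran from 0.043 to 2.45, combination tumours from 0.479 to 2.78 and anti-PD-1 tumours from 0.907 to 2.70. Thus 7 of the 8 ESK981 tumours were above every tumour of the other groups, and the means of the mice did not overlap with those of any other group. Here and below, the share of all genes whose mice separate in this way is not given, so such gaps are a description. Group means were 5.54 ± 2.60 FPKM for ESK981, 1.71 ± 0.572 for the combination, 1.36 ± 0.493 for anti-PD-1 and 1.16 ± 0.619 for vehicle. The lowest Cps1 value rests on 4 fragments (vehicle 4R) and the highest on 1729 (ESK981 1R). ESK981 1R and 2R, the libraries with few proliferation transcripts, had the 2 highest values. Without them the log2 fold change from vehicle was 1.51 in place of 1.90.

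Markers of liver and gut are given beside Cps1, and whether such tissue came with these tumours was not tested. Of 8 hepatocyte markers, Alb and Ahsg were listed at 0 in 31 tumours and Hpd in 32. Tat and Serpina1a reached at most 0.17 and 0.10 FPKM. Apoa1 was above 0 in every tumour and reached 0.5 FPKM in 13 (maximum of 1.27), and Ttr reached it in 6 (maximum of 0.93). Only Fgb, the fibrinogen beta chain, was abundant (median of 13.9 and maximum of 119 FPKM). It carried most of the summed hepatocyte level, which ran from 1.36 to 120.3 FPKM in vehicle, 8.59 to 101 in ESK981, 4.37 to 42.6 in combination and 1.16 to 56.0 in anti-PD-1 tumours. Of 6 intestinal markers, Cdx1 and Cdx2 were listed at 0 in all 33 tumours and Fabp2 in 18, while Lgals4 (median of 1.45 FPKM) reached 0.5 FPKM in all 33 and Apoa4 (median of 2.44) in 30, and the summed level ran from 2.05 to 6.63, 1.77 to 5.09, 1.89 to 7.79 and 2.09 to 9.28 FPKM in the same order. Otc, the next enzyme of the cycle, which joins carbamoyl phosphate to ornithine, was listed at 0 in all 33 tumours. Nags, which makes the obligate activator of Cps1, was listed at 0 in 26 and reached 0.0356 FPKM.

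Ass1 (chromosome 2, 31470207 to 31520672, plus strand), which joins citrulline to aspartate, was present in every tumour. Its lowest, median and highest values were 1.80, 9.12 and 23.0 FPKM in vehicle, 3.00, 5.17 and 11.3 in ESK981, 2.80, 12.6 and 15.7 in combination and 2.12, 13.2 and 16.5 in anti-PD-1 tumours. The groups overlapped. Means were 6.16 ± 2.86 FPKM in ESK981 against 10.3 ± 4.13 in vehicle, 11.3 ± 2.25 in the combination and 11.4 ± 3.61 with anti-PD-1. The lowest vehicle and anti-PD-1 values came from vehicle 5R and anti-PD-1 4R. Asl (chromosome 5, 130011258 to 130029247, minus strand), which releases arginine and fumarate, was flat, with means of 2.88 ± 0.597, 2.90 ± 0.317, 2.64 ± 0.781 and 2.69 ± 0.364 FPKM in vehicle, ESK981, combination and anti-PD-1 mice.

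Arg1 (chromosome 10, 24915221 to 24927484, minus strand), the cytosolic arginase of liver and of alternatively activated macrophages, had a narrower range in ESK981 tumours than in the other groups. The 8 ESK981 tumours lay between 55.4 and 81.0 FPKM, with a median of 75.4. Vehicle tumours had a lowest, median and highest value of 62.4, 131 and 195 FPKM, combination tumours of 48.5, 78.5 and 157, and anti-PD-1 tumours of 69.0, 94.3 and 126. A single vehicle tumour, 1L at 62.4, fell within the ESK981 range, and its partner on the other flank, 1R, had the highest value of all. Means were 127 ± 20.6 FPKM in vehicle, 93.9 ± 17.3 with anti-PD-1, 89.6 ± 42.9 in the combination and 70.3 ± 6.08 in ESK981 mice. Neighbours in this order overlapped, and the mice of the ESK981 and vehicle groups did not. Arg2 (chromosome 12, 79130777 to 79156301, plus strand), the mitochondrial arginase, was far scarcer, with means of 0.957 ± 0.671 FPKM in vehicle, 1.17 ± 0.517 in ESK981, 1.21 ± 0.421 in combination and 1.28 ± 0.729 in anti-PD-1 mice, and all groups overlapped. Its values rest on 1 to 84 fragments, and its exons share 285 of 1428 bases with exons of Vti1b on the other strand, so that without known strand use its reads are uncertain. Exons of Slc7a2 likewise share 635 of 9135 bases with Gm26584, which was listed at 0.0275 FPKM or less.

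Nos2 (chromosome 11, 78920787 to 78960254, plus strand) showed the widest gap between groups. In ESK981 tumours it was 6.24 FPKM in 1L, 2.75 in 5L, 2.42 in 3L, 2.25 in 4R, 1.97 in 3R, 1.14 in 5R, 0.197 in 2R and 0.189 in 1R. Vehicle tumours had a lowest, median and highest value of 6.15, 12.5 and 35.3 FPKM, combination tumours of 1.97, 11.2 and 22.5, and anti-PD-1 tumours of 4.29, 8.81 and 16.9. Of the ESK981 tumours 7 were thus below every vehicle and anti-PD-1 tumour, and ESK981 1L was above the 2 lowest vehicle tumours. Of the combination tumours, 1L at 1.97 and 5R at 2.27 lay among the 7. Means were 16.4 ± 5.70 FPKM in vehicle, 11.2 ± 7.62 in the combination, 9.22 ± 4.66 with anti-PD-1 and 1.96 ± 1.10 in ESK981 mice. Values rest on 21 to 2835 fragments.

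The ratio of Arg1 to Nos2, sometimes used as an index of macrophage arginine use, followed from these levels. Its lowest, median and highest value in single tumours was 9.95, 35.1 and 429 in ESK981, 4.10, 9.83 and 16.6 in vehicle, 4.83, 8.37 and 27.7 in combination and 5.57, 11.02 and 22.8 in anti-PD-1 tumours. In 7 of the 8 ESK981 tumours, all but 1L at 9.95, it was above every vehicle and anti-PD-1 tumour, although Arg1 itself was lower in ESK981 than in vehicle mice. The ratios of 429 and 382 belonged to 1R and 2R.

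Of the 2 transporters, Slc7a2, the carrier induced in activated macrophages, was low under ESK981 and Slc7a1, the widely expressed carrier, was not. Slc7a2 (chromosome 8, 40862396 to 40922308, plus strand) was 3.39 FPKM in ESK981 1L, 2.33 in 3R, 2.18 in 5R, 1.77 in 3L, 1.28 in 4R and in 5L, 0.513 in 1R and 0.349 in 2R. Vehicle tumours ran from 1.22 to 13.0 (median 6.07), combination tumours from 1.24 to 12.6 (4.30) and anti-PD-1 tumours from 1.18 to 9.83 (4.78). The ESK981 range also held 3 vehicle tumours (1L, 3R and 5R), 4 combination tumours (1L, 4L, 4R and 5R) and anti-PD-1 4R. Means were 5.96 ± 1.93 FPKM in vehicle, 5.59 ± 4.29 in the combination, 4.97 ± 1.35 with anti-PD-1 and 1.47 ± 0.695 in ESK981 mice. Slc7a1 (chromosome 5, 148327410 to 148399904, minus strand) had means of 8.24 ± 2.23, 8.98 ± 2.08, 8.20 ± 2.60 and 9.22 ± 2.01 FPKM in vehicle, ESK981, combination and anti-PD-1 mice, and all groups overlapped.

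The enzymes that use ornithine did not separate the groups. Odc1 (chromosome 12, 17544794 to 17551505, plus strand), the first enzyme of polyamine synthesis, had means of 27.1 ± 7.47, 29.7 ± 6.50, 29.9 ± 8.13 and 29.6 ± 8.01 FPKM in vehicle, ESK981, combination and anti-PD-1 mice. Its lowest tumours were anti-PD-1 4R (6.49), vehicle 5R (8.72), ESK981 2R (18.3), combination 5R (18.4) and ESK981 1R (18.5), the same 5 libraries that stood apart in depth, RNA composition or proliferation transcripts. Oat (chromosome 7, 132557478 to 132576398, minus strand), which turns ornithine toward glutamate and proline, had means of 19.6 ± 3.27, 21.9 ± 3.26, 18.9 ± 6.32 and 19.7 ± 5.05 FPKM in the same order. Oat lies within the span of the Fgfr2 gene on the same strand, and their annotated exons share 0 bases.

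Between ESK981 and vehicle, 1 of the 10 genes was called higher and 3 lower at a limma adjusted p under 0.05, beside 8.95% of all genes tested called higher and 5.43% called lower. Since the genes were chosen with this difference in view, nothing is read from the count. The 2278 calls over all genes behind these shares depended on single mice. They fell to 1053 and 1205 without vehicle mouse 2 or 3, and to 1160, 1320, 1168 and 1220 without ESK981 mouse 1, 2, 4 or 5. The log2 fold changes of FPKM + 0.5, an offset that shrinks the change of scarce transcripts, were −2.88 ± 0.46 (SE) for Nos2 (7.35-fold), 1.90 ± 0.31 for Cps1 (3.72-fold), −1.64 ± 0.38 for Slc7a2 (3.11-fold) and −0.80 ± 0.23 for Arg1 (1.74-fold). Ass1 was at −0.64 ± 0.34, and Asl, Arg2, Odc1, Oat and Slc7a1 were between 0.04 and 0.32. The median of the 10 was 0.09, against 0.11 over all genes tested. In whole tumours, fewer cells of a type and less RNA per cell cannot be told apart. Without ESK981 1R and 2R, Nos2 was at −2.10 and still called, and Slc7a2 at −1.13 was no longer called. There 875 of all genes were called higher and 522 lower. Vehicle 5R was the lone vehicle tumour with the flow cell code of the treated ones. Against it, the values were 1.73 for Cps1, −1.81 for Nos2, −0.48 for Arg1 and 0.03 for Slc7a2. No call is read from a fit with 1 vehicle tumour. Ass1, at −0.64 over all mice, was at 1.39 against vehicle 5R and at 1.28 with the flow cell code as a term. Vehicle is the only group with both codes. The term, too, thus rests on vehicle 5R, an atypical library, against the other vehicle tumours. The sign of Ass1 thus depends on the vehicle tumours used. Without the 3 atypical libraries it was called lower at −0.81, beside 3074 of all genes called higher and 1714 lower. Odc1, Slc7a1 and Arg2 were called higher against vehicle 5R, at 1.65, 1.05 and 1.49, and Odc1 and Slc7a1 also with the flow cell term, at 1.63 and 1.06.

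The single agents could be compared within one flow cell code and without the vehicle mice. The number that follows the code in the library names still separates them, with 3 or 4 for all ESK981 tumours and 6 for all anti-PD-1 tumours (4 or 5 for the combination), so that treatment and this number cannot be told apart. The comparison also shares the ESK981 mice whose values had chosen the genes. Relative to anti-PD-1, Nos2 in ESK981 mice was lower by 4.59-fold (log2 −2.20 ± 0.46, limma adjusted p = 0.0648), Cps1 higher by 3.02-fold (1.60 ± 0.31, adjusted p = 0.0648) and Slc7a2 lower by 2.88-fold (−1.53 ± 0.38, adjusted p = 0.0870). None of the 10 was called by limma, and 4 were below an unadjusted p of 0.05. The mice of the groups did not overlap for Nos2, Cps1 and Slc7a2, which is a description without the share of all genes beside it. Of all genes tested 0% were called higher and 0.00631% lower, 1 gene in all, and 2194 had an unadjusted p under 0.05. The fourth was Ass1 (−0.83 ± 0.34, adjusted p = 0.274), whose mice overlapped, and Arg1 was at −0.41 ± 0.23. Without ESK981 1R and 2R the values of Nos2, Cps1 and Slc7a2 were −1.42, 1.21 and −1.02. Without the 3 atypical libraries, all 4 were called, Cps1 higher at 1.56 and Nos2, Slc7a2 and Ass1 lower at −2.23, −1.73 and −1.07.

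Under both agents the mean levels of Nos2, Slc7a2, Cps1 and Ass1 lay nearer to the groups without ESK981 than to ESK981 alone, but no difference from ESK981 was called. This comparison, too, shares the ESK981 mice whose values had chosen the genes, so a difference back toward the other groups is partly built in. In the combination relative to ESK981, Nos2 was at 2.18 ± 0.46 (4.53-fold higher), Slc7a2 at 1.45 ± 0.38, Ass1 at 0.87 ± 0.34 and Cps1 at −1.38 ± 0.31, with limma adjusted p of 0.325 for Nos2, Cps1 and Slc7a2 and 0.611 for Ass1. These 4 had an unadjusted p under 0.05, as had 1226 genes in all, while 0% of genes were called higher and 0% lower. The means of the mice did not overlap for Cps1. For Nos2 they were separate only by the margin between 1.46 and 1.47 on the log2 scale, the highest ESK981 and the lowest combination mouse. As means of FPKM they overlapped, with ESK981 mouse 1 at 3.21 and combination mouse 5 at 2.27. Without the 3 atypical libraries, Nos2 was called at 2.59 (adjusted p = 0.0451), and it was the only one of the 10. Leaving out tumours 1R and 2R of the ESK981 group put it at 1.40.

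The combination and anti-PD-1 mice are not part of the difference between ESK981 and vehicle that was known when the genes were chosen. They give the remaining comparison of ESK981, with the antibody present in both. Earlier results of these data were known, so it is not a fully independent test. None of the 10 genes was called by limma and none had an unadjusted p under 0.05, against 942 of all genes, with 0% of genes called higher and 0% lower. Nos2 differed by −0.02 ± 0.46 (95% interval −0.98 to 0.95), Cps1 by 0.21 ± 0.31 (−0.43 to 0.86), Slc7a2 by −0.08 ± 0.38 (−0.86 to 0.71) and Arg1 by −0.19 ± 0.23 (−0.67 to 0.29). Between ESK981 and vehicle the 95% intervals were −3.84 to −1.91 for Nos2, 1.25 to 2.54 for Cps1, −2.43 to −0.85 for Slc7a2 and −1.29 to −0.32 for Arg1. The 2 intervals overlap for Slc7a2 and Arg1 and not for Nos2 and Cps1. This is a description, since the difference from vehicle chose the genes and cannot be told apart from the flow cell. The interaction, given next, was not called for any of the 10.

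The interaction asks whether the ESK981 difference was another one under anti-PD-1, and uses all 4 groups. It contains the difference between ESK981 and vehicle that chose the genes, so values opposite to that difference are partly built in and are no independent evidence. It was 2.86 ± 0.66 for Nos2 (limma adjusted p = 0.0924), −1.68 ± 0.44 for Cps1 (0.116) and 1.56 ± 0.54 for Slc7a2 (0.167). None of the 10 was called and these 3 had an unadjusted p under 0.05, as had 2879 genes in all. Of all genes, 0.0189% were called with a positive and 0.00631% with a negative interaction. Without the 3 atypical libraries, all 3 were called, at 3.35, −1.84 and 1.76. With the flow cell code as a term Nos2 was at 1.77 and Slc7a2 at −0.21, and neither was called.

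None of the 10 genes was called by limma in anti-PD-1 or in the combination relative to vehicle. In anti-PD-1 relative to vehicle the values ran from −0.68 ± 0.46 for Nos2 to 0.34 ± 0.30 for Arg2, none with an unadjusted p under 0.05 (2089 of all genes had one), beside 0.473% of genes called higher and 0.309% lower. In the combination relative to vehicle they ran from −0.70 ± 0.46 for Nos2 to 0.51 ± 0.31 for Cps1. Arg1, at −0.58 ± 0.23 (adjusted p = 0.306), was the only one with an unadjusted p under 0.05, of 1970 genes in all, beside 0.0820% of genes called higher and 0.524% lower. Without combination mouse 2, whose single tumour had the highest Arg1 of its group, Arg1 was called lower at −0.82. Of all genes, 14 were called higher and 140 lower in that setting.

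**Figure D2:**
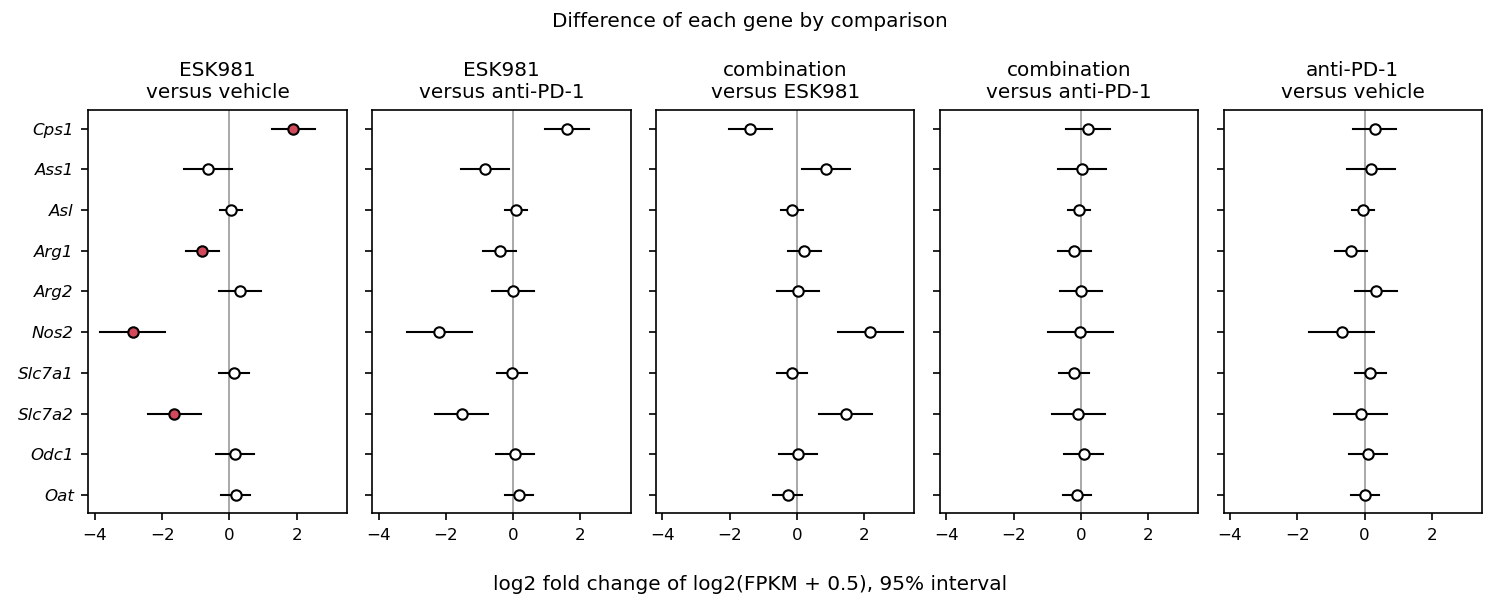
Log2 fold change of each gene (points) with its 95% interval (lines) in 5 comparisons, on the log2(FPKM + 0.5) scale, from limma over 20 mouse means. Filled points mark genes called at an adjusted p under 0.05, which are Cps1, Arg1, Nos2 and Slc7a2 in the left panel, and the interval of every gene crosses 0 in combination versus anti-PD-1.

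The surroundings of the pathway were read from 9 lists of 85 genes, of which 75 were tested. In ESK981 relative to vehicle 4 were called higher and 10 lower, beside 8.95% of all genes tested called higher and 5.43% lower. The lists were chosen with earlier results known, so nothing is read from these counts. Of 5 tested urea cycle neighbours, Slc25a13, the mitochondrial aspartate and glutamate carrier citrin, was higher (0.46 ± 0.14, limma adjusted p = 0.0364). Spr, which completes the tetrahydrobiopterin cofactor of nitric oxide synthases, was the 1 of 9 called in its list (−0.62 ± 0.13, adjusted p = 0.00727). Of 16 polyamine genes, the spermine oxidase Smox was lower (−0.78 ± 0.19, adjusted p = 0.0119) and the polyamine transporter Atp13a3 higher (0.62 ± 0.19, adjusted p = 0.0324). No other polyamine gene was called. Of 5 creatine genes the brain-type creatine kinase Ckb was lower (−0.86 ± 0.23), of 7 transport and sensing genes Bmt2, also known as SAMTOR, was higher (0.72 ± 0.15), and none of 8 genes of ornithine, proline and glutamate conversion or of 3 pyrimidine genes was called.

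The lists of the signal path of Nos2 and of inducers and companions of Arg1 held the remaining calls. Of 12 genes on the signal path of Nos2, 4 were lower and 1 higher. Irf1, an interferon-induced transcription factor that binds the Nos2 promoter, was lower at −1.54 ± 0.30 (26.5 ± 8.75 FPKM in vehicle and 8.47 ± 2.61 in ESK981 mice, limma adjusted p = 0.00449), and the cytokine Il1b at −1.38 ± 0.32. Of 10 inducers and companions of Arg1, 3 were lower and none higher: the transcription factor Cebpb, an activator of Arg1, at −1.36 ± 0.22 (20.5 ± 3.92 and 7.77 ± 2.88 FPKM), the interleukin 4 receptor chain Il4ra at −1.40 ± 0.34, and Retnla, a marker of alternative activation, at −2.53 ± 0.57. The median of the 10 was −0.70, against 0.11 over all genes. In the combination relative to vehicle, 2 of the 75 were called, both lower: Spr (−0.71 ± 0.13, adjusted p = 0.0107) and Ddah2, which degrades a natural inhibitor of nitric oxide synthases (−0.59 ± 0.13, adjusted p = 0.0430). Of all genes tested, 0.0820% were called higher and 0.524% lower in that comparison. No gene of the lists was called by limma in any of the other 5 comparisons.

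Markers of macrophages, T cells, neutrophils and fibroblasts were lower along with Nos2, Arg1 and Slc7a2 in ESK981 relative to vehicle, and endothelial markers were higher. The counts below stand beside 8.95% of all genes tested called higher and 5.43% lower in ESK981 relative to vehicle. In anti-PD-1 relative to vehicle no marker was called, and the macrophage median was 0.15. Of 10 macrophage markers 5 were called lower in ESK981 relative to vehicle and none higher, with a median of −0.83, and their summed level ran from 90.0 to 264 FPKM in vehicle, 64.0 to 119.5 in ESK981, 50.2 to 222 in combination and 132 to 245 in anti-PD-1 tumours. Of 7 T cell markers 5 were lower (median −0.82), with sums of 0.858 to 10.9, 0.970 to 3.00, 0.875 to 11.02 and 1.74 to 8.14 FPKM in the same order. Of 4 neutrophil markers tested 2 were lower, with sums of 2.78 to 19.2, 1.23 to 8.32, 1.36 to 17.3 and 3.23 to 7.84 FPKM, and Ly6g was listed at 0 in 31 tumours. Of 6 fibroblast markers 4 were lower (sums of 45.9 to 514, 22.5 to 47.5, 27.9 to 202 and 50.1 to 130 FPKM). Of 5 endothelial markers tested 3 were higher, and so was Fabp4, the adipocyte marker tested. Of 4 epithelial markers tested 1 was called higher and all 4 were above 0, with a median of 0.32. No muscle or proliferation marker was called. Of 13 mitochondrially encoded genes 12 were lower and of 3 ribosomal-RNA-like transcripts all were. The part of these cell types and of RNA composition in the levels of Nos2, Arg1, Slc7a2 and Cps1 was not tested.

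The genes most like Nos2 over the 20 mouse means, of 9595 candidates, were Cd274, which encodes the PD-1 ligand PD-L1 (Pearson r = 0.956), the signalling regulator Rgs16 (0.947), the cytotoxic protease Gzmb (0.943), Apol6 (0.940) and AW112010 (0.938). With group means removed, r stayed between 0.827 and 0.903, so that these genes also varied with Nos2 among mice of a group. Cd274 had group means of 9.65, 1.93, 8.76 and 7.07 FPKM in vehicle, ESK981, combination and anti-PD-1 mice. Among the 5 genes most like Arg1 were the kinase Prkcd (0.932), the actin-binding Cotl1 (0.931), Dennd4b (0.924) and the adaptor Dok3 (0.918), with r of 0.863 to 0.919 within groups. No gene followed Cps1 as closely: Adam22 had an r of 0.792, Fam69a 0.740, Rragb 0.735, Msrb2 0.725 and the retinal dehydrogenase Aldh1a1 0.717, and within groups these fell to between 0.188 and 0.550. The genes were picked for their likeness out of all candidates, and the mice share groups, depth and RNA composition, so r is given as a description.

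**Figure D3:**
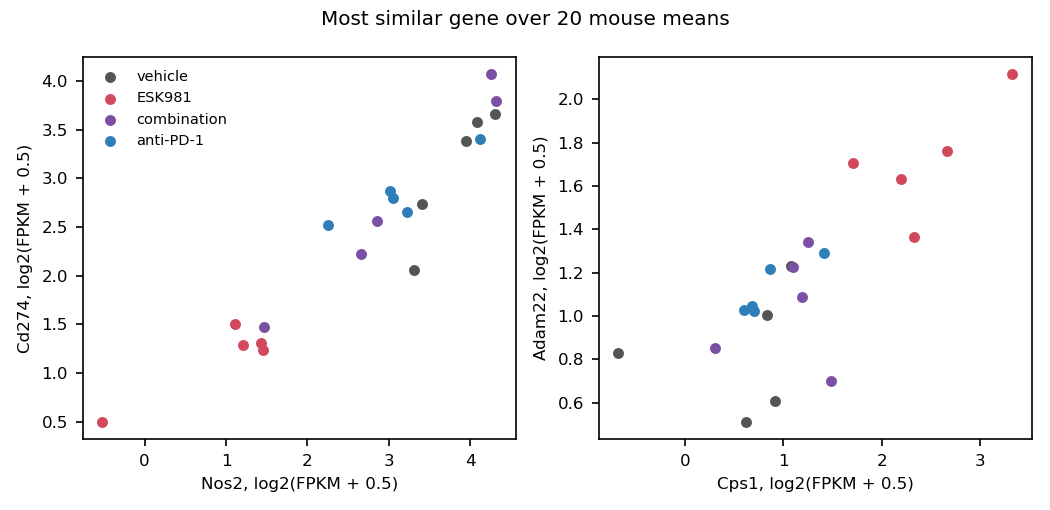
Mouse means of Nos2 and Cps1 (x axes) against the gene most like each (y axes), both as log2(FPKM + 0.5), with 1 point per mouse coloured by group. Cd274 follows Nos2 along the whole range (r = 0.956), and Adam22 follows Cps1 mainly through the ESK981 mice.

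Tumours on the 2 flanks of one mouse showed how stable these levels were. In the 13 mice with both, no difference between left and right was called for the 10 genes or for any of the 15846 tested (limma with mouse as a block, 0 called, 1342 with an unadjusted p under 0.05). The distance between partners was large for Nos2, with a median of 0.99 and a maximum of 3.29 on the log2 scale, the latter in ESK981 mouse 1 (6.24 and 0.189 FPKM). The SD of single tumours within a mouse was 1.12 for Nos2, 0.99 for Slc7a2 and 0.85 for Ass1. The SD of the mouse means within groups was 0.83, 0.67 and 0.60 for the same genes. For Arg1 and Oat the SD within a mouse was 0.41 and 0.34, beside 0.38 and 0.33 for the mouse means, and for Slc7a1 0.32 beside 0.36. Means of 1 or 2 tumours still hold part of the spread within mice, so the 2 SDs are not like for like. Vehicle mouse 1 went against the flatness of Arg1, with 62.4 FPKM on the left and 195 on the right, and its Nos2 was 6.15 and 35.3 on the same sides.

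**Figure D4:**
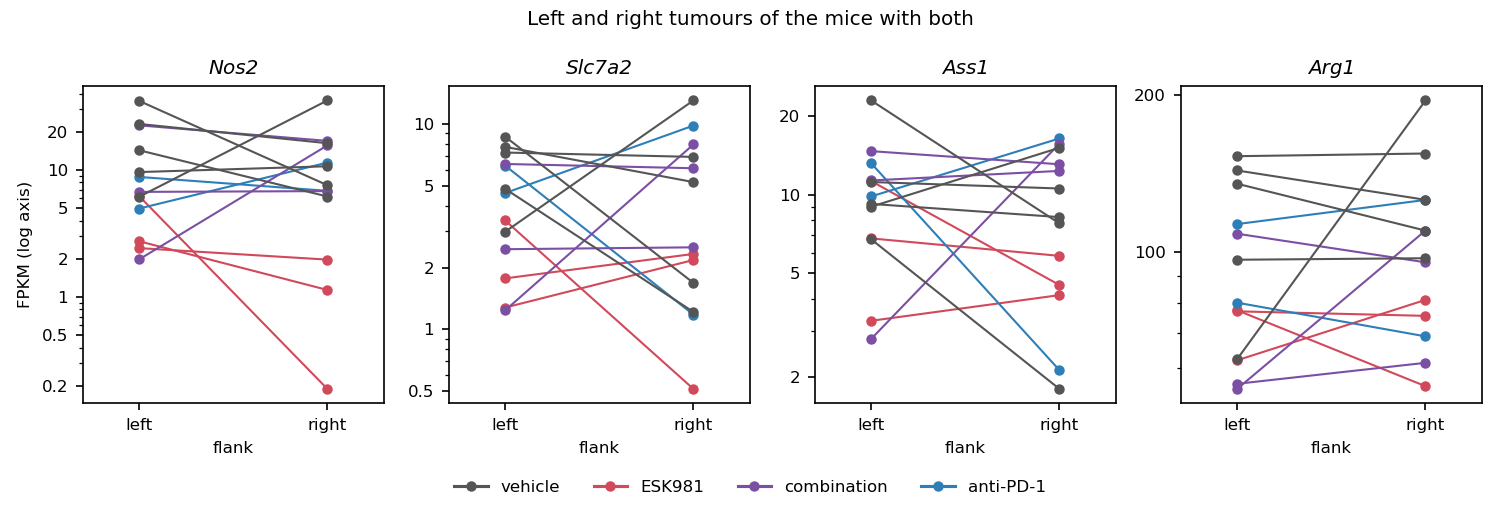
FPKM (log axis) of Nos2, Slc7a2, Ass1 and Arg1 in the left and right tumours of the 13 mice with both, joined by lines and coloured by group. The steepest Nos2 line joins 6.24 and 0.189 FPKM in 1 ESK981 mouse, and the Arg1 lines are mostly level.

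Among themselves the 10 genes were compared over the 20 mice after group means were removed, which leaves out the differences that chose them. Of 45 pairs, 3 passed a Benjamini-Hochberg adjusted p under 0.05 for both Pearson and Spearman coefficients in a two-sided permutation test within groups, all 3 positive. Asl and Oat had r = 0.890 (permutation p = 4e-05, adjusted 0.00112) and rho = 0.886 (p = 2e-05, adjusted 0.00045). Ass1 and Arg2 had r = 0.847 (permutation p = 5e-05, adjusted 0.00112) and rho = 0.902 (p = 1e-05, the smallest these permutations can give, adjusted 0.00045). Odc1 and Slc7a1 had r = 0.736 (permutation p = 0.00047, adjusted 0.00705) and rho = 0.690 (p = 0.00286, adjusted 0.0429). Without the 2 mice farthest from the median, r was 0.836, 0.781 and 0.690, and without the 3 atypical libraries it was 0.779, 0.768 and 0.573. No p was computed for these values. The libraries differ in depth and RNA composition, and the part of this in the coefficients was not tested. A further 8 pairs passed for Pearson alone, led by Arg1 with Slc7a2 (r = 0.763) and Nos2 with Slc7a2 (r = 0.721). Nos2 with Arg1 reached 0.617 and did not pass (adjusted permutation p = 0.103). The coefficients of Cps1 ran from −0.396 with Nos2 to 0.02 with Arg2, and none passed.

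**Figure D5:**
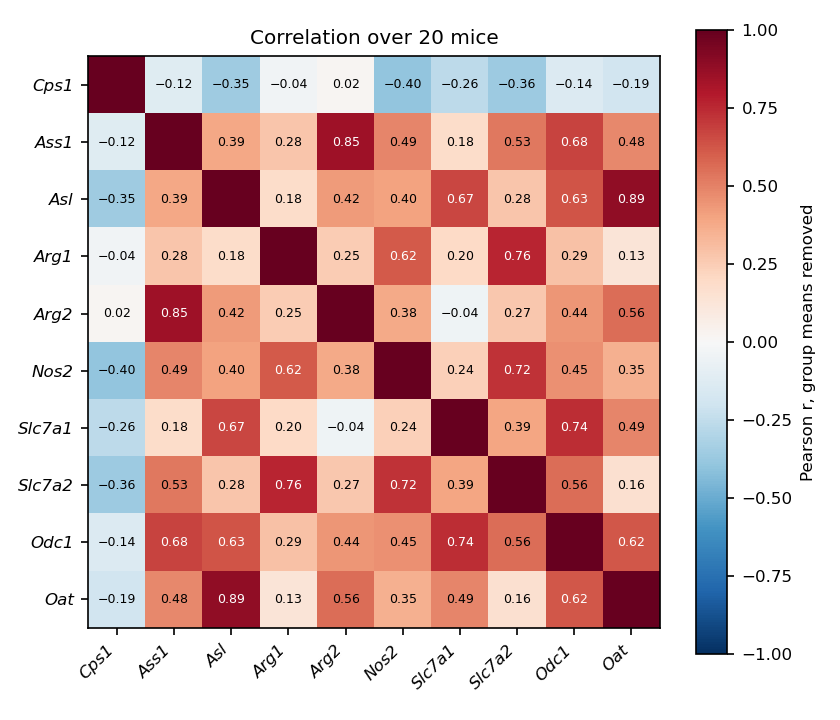
Pearson r between the 10 genes over 20 mice after removal of group means, from −1 (blue) to 1 (red), with each value printed. The highest cells are Asl with Oat (0.89), Ass1 with Arg2 (0.85), Arg1 with Slc7a2 (0.76) and Odc1 with Slc7a1 (0.74), and the row of Cps1 holds values of −0.40 to 0.02.

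For the pair of Odc1 and Slc7a1, a decarboxylase and a transporter that varied together within groups, the sequences before the gene starts are shown for comparison. They are RefSeq promoters on GRCm38.p6, 250 bases to the start, 5′ to 3′ on the strand of the gene, with motif matches in capitals, at chr12:17544623-17544872 (plus), chr5:148399905-148400154 (minus, first start of Slc7a1) and chr5:148392816-148393065 (minus, second start).
Odc1: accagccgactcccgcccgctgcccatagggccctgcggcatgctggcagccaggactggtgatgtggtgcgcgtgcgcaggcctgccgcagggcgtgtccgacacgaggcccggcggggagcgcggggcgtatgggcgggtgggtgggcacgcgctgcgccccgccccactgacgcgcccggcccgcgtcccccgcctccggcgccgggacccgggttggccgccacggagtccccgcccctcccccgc
Slc7a1 first start: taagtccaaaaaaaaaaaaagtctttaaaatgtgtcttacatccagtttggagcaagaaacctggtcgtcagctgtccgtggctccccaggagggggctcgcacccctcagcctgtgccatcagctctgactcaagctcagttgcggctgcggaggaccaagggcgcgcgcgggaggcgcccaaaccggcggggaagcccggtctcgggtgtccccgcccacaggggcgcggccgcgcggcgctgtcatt
Slc7a1 second start: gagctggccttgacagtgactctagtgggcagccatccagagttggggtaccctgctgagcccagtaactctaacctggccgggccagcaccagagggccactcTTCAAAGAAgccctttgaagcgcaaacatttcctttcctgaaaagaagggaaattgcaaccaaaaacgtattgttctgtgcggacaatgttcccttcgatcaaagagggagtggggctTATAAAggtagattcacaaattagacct
Promoters were found for 4 of the 10 genes, Ass1, Odc1, Oat and Slc7a1. In windows of 250 bases before and 50 after the start, both strands were searched for the GAS element TTCNNNGAA, the IRF element GAAANNGAA, the E-box CACGTG, the C/EBP site TTNNGCAA, the ATF4 element TGATGNAA, the TATA box TATAAA and the kappaB site. The windows of Odc1 and of the first start of Slc7a1 held none of them, and were rich in G and C (78.0% and 65.0%). The second start of Slc7a1 (51.7%) held a GAS match 146 bases and a TATA box 28 bases before the start, found in 8.30% and 13.6% of 32851 promoters. Ass1 held an E-box 36 bases before its start (7.15% of promoters) and Oat an IRF match at 186 bases (8.56%). The pair of genes that varied together thus had no motif of this set in common.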

How the data were processed

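RNA of 33 tumours from 20 mice was sequenced after ribosomal RNA removal. The authors deposited 1 table of FPKM per gene and tumour. Per the submitters' processing notes, STAR, featureCounts and the mm10 build were used, and for tool versions, annotation and strand the entry is: not given in the sources used here. Of the gene identifiers, 41427 carry the version of the GENCODE M21 annotation, from which positions were taken. FPKM times exon length gave close to whole fragments in every tumour for 8 of the 10 genes, all but Arg1 and Odc1, and served only to state depth.

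Values were averaged per mouse as log2(FPKM + 0.5) for genes with at least 0.5 FPKM in 5 or more tumours. All 4 groups were fitted together with limma 3.58.1 (R 4.3.3, trend, 16 residual degrees of freedom) without covariates, and p-values were adjusted by Benjamini-Hochberg over 15846 genes. The labels name mice by ear tag, and whether cages or days differed is not stated. The fit was also run on simulated data with independent noise for each gene and mouse. Those data held no flow cell or library differences, so the run says nothing about them. Correlations used 100000 permutations within groups (scipy 1.17.1).

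The genes, the gene lists and the tests were chosen with earlier results of these data known. From each pathway list, up to 3 genes called in ESK981 versus vehicle were named, smallest adjusted p first. Some genes that these rules would name are not reported here. Ddah2 and Spr in the combination were named after their values were seen. Alternatives covered pseudocount, filter, scaling, single tumours with mouse as a random effect, a flow cell term, the treated groups alone, and leaving out mice or libraries.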

Additional observations from a re-analysis of the deposited data

Results flagged for a closer look

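In 40 sets of 5 mice, 1 for each gene and group, the lowest or highest mouse was compared with its nearest neighbour as a share of the whole range on the log2 scale. Chance alone marks about 1 set in 20, or 2 here, and 3 stood out. The Cps1 level of vehicle mouse 4 was the lowest of its group by 0.742 of the range (0.130 FPKM). The Nos2 level of ESK981 mouse 2 was the lowest by 0.822 of the range (0.197 FPKM). That mouse had 1 tumour, 2R, which had few proliferation transcripts. Without it the log2 fold change of Nos2 between ESK981 and vehicle was −2.51. The Odc1 level of anti-PD-1 mouse 4 was the lowest by 0.789 of the range (16.5 FPKM), and its tumour 4R had low depth and many mitochondrial transcripts.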

How the results depend on the processing

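Between ESK981 and vehicle, Cps1 kept its call in 19 of 19 settings (1.51 to 2.40), Nos2 in 17 (−3.36 to −1.72), Slc7a2 in 16 and Arg1 in 11 (−0.94 to −0.48). These settings include the lone vehicle tumour and the flow cell term. The flow cell term called 5554 of all genes higher and 232 lower, so a higher call there says little. Slc7a2 turned to 0.0908 with a flow cell term and to 0.0313 with vehicle 5R as the lone vehicle tumour. The setting with the lone tumour was chosen after seeing the data and assumes that this tumour varies like the other groups. The flow cell term also rests on vehicle 5R, since only vehicle has both codes, so these settings are not separate checks. The cause of the change in Slc7a2 was not tested. Of the 10 genes, none was called in the other comparisons, with these exceptions. Median-of-ratios scaling called 3 in ESK981 versus anti-PD-1 and 1 in the interaction, beside 263 and 62 of all genes. The flow cell term called 3 in anti-PD-1 versus vehicle, 2 in combination versus vehicle and 1 in the interaction. It also called 4397, 4467 and 4033 of all 15846 genes there, so nothing is read from these counts. The treated groups alone called 1 in ESK981 versus anti-PD-1, beside 6 of all genes. Without the 3 atypical libraries, 1 was called in combination versus ESK981, 4 in ESK981 versus anti-PD-1 and 3 in the interaction. Of all genes, 41, 777 and 723 were called there. With the lone vehicle tumour, some of the 10 were called in anti-PD-1 versus vehicle, combination versus vehicle, ESK981 versus anti-PD-1 and the interaction. No count is given for a fit with 1 vehicle tumour. Leaving out 1 mouse gave 0 to 1 in combination versus vehicle (1 without combination mouse 2), 0 to 1 in the interaction (1 without combination mouse 5 or anti-PD-1 mouse 5), 0 to 2 in ESK981 versus anti-PD-1 (2 without anti-PD-1 mouse 5) and 3 to 4 in ESK981 versus vehicle. Without the mice in brackets, the calls over all genes were 154, 35, 67 and 181 in that order. Over all genes, ESK981 versus vehicle had 2278 calls (1418 higher and 860 lower), 4416 with scaling (2207 and 2209) and 5786 with the flow cell term (5554 and 232). There were 4788 without the 3 atypical libraries, 1397 without ESK981 1R and 2R, 3283 with single tumours and 1412 without a filter. Leaving out 1 mouse gave 1053 to 2532, and without vehicle mouse 5 the balance turned (672 higher and 1113 lower). Scaling moved the median of all genes from 0.11 to 0.01 in that comparison. No paired analysis was possible because mouse numbers pair nothing across groups. Low counts limit Arg2, which rests on 1 to 84 fragments, and the lowest Cps1 values.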
